A study of Mus musculus with 12 samples.

Results

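The keratin genes of the mouse were examined for H3K27me3, a histone mark that Polycomb repressive complex 2 writes by adding 3 methyl groups to lysine 27 of H3 and that is typical of silent genes. Members were the protein-coding genes of the GENCODE annotation of GRCm38 whose symbol is Krt followed by a number and at most 1 letter. This rule gave 53 genes of 21755 protein-coding genes on chromosomes 1 to 19 and X, namely 27 on chromosome 11 and 26 on chromosome 15. The mark was measured by chromatin immunoprecipitation and sequencing (ChIP-seq) in iMEF cells, which are immortalized mouse embryo fibroblasts. All groups shared the same engineering. Exon 4 of both floxed Ash2l alleles had been removed with a Cre-ER recombinase expressed from a CAGG promoter, and a lentiviral construct supplied human ASH2L joined to an FKBP domain. The ChIP-seq was made with a single clone, NG3, so the list describes one line of cells. ASH2L is a subunit of the complexes that methylate lysine 4 of histone H3, and the compound dTAG directs the tagged protein to degradation. For H3K27me3, 8 libraries were made, with 2 for each of 4 groups: no dTAG, or dTAG during 16 h, 24 h or 48 h. A further 4 input libraries, which are chromatin without immunoprecipitation, came from cells without dTAG and from cells treated for 48 h, with 2 of each. Libraries of a group are called biological replicates in the study. The deposited list joins the sites of all these samples into 101389 positions without any signal, so it describes the mark in the series as a whole. This list allowed no comparison of time points, carries no replicate error and does not give the depth behind a site.

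Keratins are the intermediate filament proteins of epithelial cells. They assemble as obligate pairs of an acidic type I and a basic type II protein, so that each epithelium expresses matching partners from both families. In the mouse, the type I genes lie in a cluster on chromosome 11 and the type II genes in a cluster on chromosome 15. The exception is Krt18, a type I gene that lies beside its partner Krt8 at the end of the type II cluster. Fibroblasts build their cytoplasmic filaments from vimentin instead, and most keratins are silent in mesenchymal cells.

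A gene was scored in 2 ways, by a site within 1 kb of any of its transcription start sites (TSSs), and by gene-body cover, the share of the bases from the start to the end of the gene that lay in sites. By the first measure, 30 of the 53 keratin genes had a site, where 26.9% of all protein-coding genes did. The clusters differed in this count. In the type II cluster, 20 of 26 genes (76.9%) had a site, against 35.7% of the protein-coding genes of chromosome 15. In the type I cluster 10 of 27 genes (37.0%) had a site, against 30.4% of those of chromosome 11, which is close to the background. With a window of 3 kb, 16 type I genes had a site, against 33.5% of all protein-coding genes. Counting only sites whose centre lay in the 1 kb window, 5 type I and 10 type II genes had one, against 18.5% of all. The 20 type II genes rested on 19 distinct listed sites and the 10 type I genes on 10. Sites split by short gaps count as distinct here, so these numbers do not show that the calls are separate stretches. The site nearest to the Krt90 TSS starts at chr15:101562796, close behind the site over Krt82 that ends at chr15:101562708. From Krt71 to Krt79 the listed sites also follow each other at short gaps. The genes of a cluster share their surroundings and are not replicates of each other. The difference between the clusters was therefore not tested.

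Promoter sequences are given for 7 keratins, chosen to show covered and uncovered starts in both clusters. RefSeq promoters (GRCm38.p6) were at hand for 36 of the 53 members. Each sequence holds the 250 bases before the RefSeq start in the direction of the gene, and capitals mark CpG dinucleotides. Krt9, Krt12, Krt73 and Krt76 were chosen as covered promoters, in which all 250 bases lay in a site. They are at chr11:100193247-100193496, chr11:99422260-99422509, chr15:101802361-101802610 and chr15:101892921-101893170, all on the reverse strand.

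Krt9: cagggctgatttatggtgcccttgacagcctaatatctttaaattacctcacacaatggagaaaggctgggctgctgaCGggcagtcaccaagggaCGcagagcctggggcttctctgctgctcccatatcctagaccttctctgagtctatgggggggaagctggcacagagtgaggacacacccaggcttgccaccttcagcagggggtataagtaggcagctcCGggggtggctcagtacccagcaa
Krt12: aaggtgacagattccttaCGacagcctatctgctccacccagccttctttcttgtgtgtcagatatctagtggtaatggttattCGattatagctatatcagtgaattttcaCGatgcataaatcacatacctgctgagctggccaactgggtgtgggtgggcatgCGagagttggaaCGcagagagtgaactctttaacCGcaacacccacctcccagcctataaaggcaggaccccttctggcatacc
Krt73: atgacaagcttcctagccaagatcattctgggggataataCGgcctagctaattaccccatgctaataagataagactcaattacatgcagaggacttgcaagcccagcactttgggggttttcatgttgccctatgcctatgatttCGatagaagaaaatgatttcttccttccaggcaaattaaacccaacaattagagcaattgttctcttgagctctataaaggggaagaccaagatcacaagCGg
Krt76: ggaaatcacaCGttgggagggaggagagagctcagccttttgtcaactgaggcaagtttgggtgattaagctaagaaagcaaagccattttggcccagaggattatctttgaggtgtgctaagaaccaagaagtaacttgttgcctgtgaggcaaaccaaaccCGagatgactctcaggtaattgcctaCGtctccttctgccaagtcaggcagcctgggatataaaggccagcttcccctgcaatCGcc

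The uncovered promoters of Krt10 (chr11:99389365-99389614, reverse strand), Krt8 (chr15:102004343-102004592, reverse strand) and Krt18 (chr15:102027966-102028215, forward strand) had 0 bases in a site.

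Krt10: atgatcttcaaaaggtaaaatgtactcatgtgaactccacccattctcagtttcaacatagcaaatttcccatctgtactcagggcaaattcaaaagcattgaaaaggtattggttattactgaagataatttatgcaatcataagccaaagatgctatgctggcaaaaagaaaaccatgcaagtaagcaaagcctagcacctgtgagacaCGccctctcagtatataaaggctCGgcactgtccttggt
Krt8: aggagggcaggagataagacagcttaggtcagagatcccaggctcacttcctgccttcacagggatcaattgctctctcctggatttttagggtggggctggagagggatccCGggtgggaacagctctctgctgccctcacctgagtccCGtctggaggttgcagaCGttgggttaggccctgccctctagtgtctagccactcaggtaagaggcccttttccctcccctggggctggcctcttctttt
Krt18: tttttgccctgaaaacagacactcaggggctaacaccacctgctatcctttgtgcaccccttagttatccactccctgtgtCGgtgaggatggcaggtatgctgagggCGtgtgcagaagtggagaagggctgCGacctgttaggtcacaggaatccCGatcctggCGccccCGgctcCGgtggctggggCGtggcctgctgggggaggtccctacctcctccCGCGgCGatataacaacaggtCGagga

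The covered sequences have 3 to 6 CpGs. Of the uncovered ones, Krt10 has 2, Krt8 has 3 and Krt18 has 12, so that the ranges of the covered and uncovered sets overlap. The motif TATAAA, read in the direction of the gene in the last 50 bases before the start, was present in 15 of 37 keratin promoters, against 2.63% of the 32851 promoters of the table. It was found in 12 of 21 type I and 3 of 16 type II promoters, and in 6 of 19 promoters of genes with a site and 9 of 18 of genes without. On both strands and over all 300 bases of the table entries, it was in 19 keratin promoters and in 13.6% of all. In the sequences above, it is present in Krt12, Krt73, Krt76 and Krt10.

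Gene-body cover separated the clusters further. The median cover was 72.7% in the type II cluster (quartiles 51.0% and 93.0%) and 5.13% in the type I cluster (quartiles 0% and 32.4%), whereas the median of all protein-coding genes was 0%. Counting only sites of at least 500 bp, the median was 72.7% in the type II and 0% in the type I cluster. At least 50% of the gene was covered in 20 type II genes and in 5 type I genes. Over all protein-coding genes this held for 10.1%, over those of chromosome 15 for 18% and over those of chromosome 11 for 13.3%. No covered base at all was found in 4 type II and 13 type I genes, against 57.7% of the protein-coding genes of chromosome 15, 66.8% of those of chromosome 11 and 69.4% of all.

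**Figure D1:**
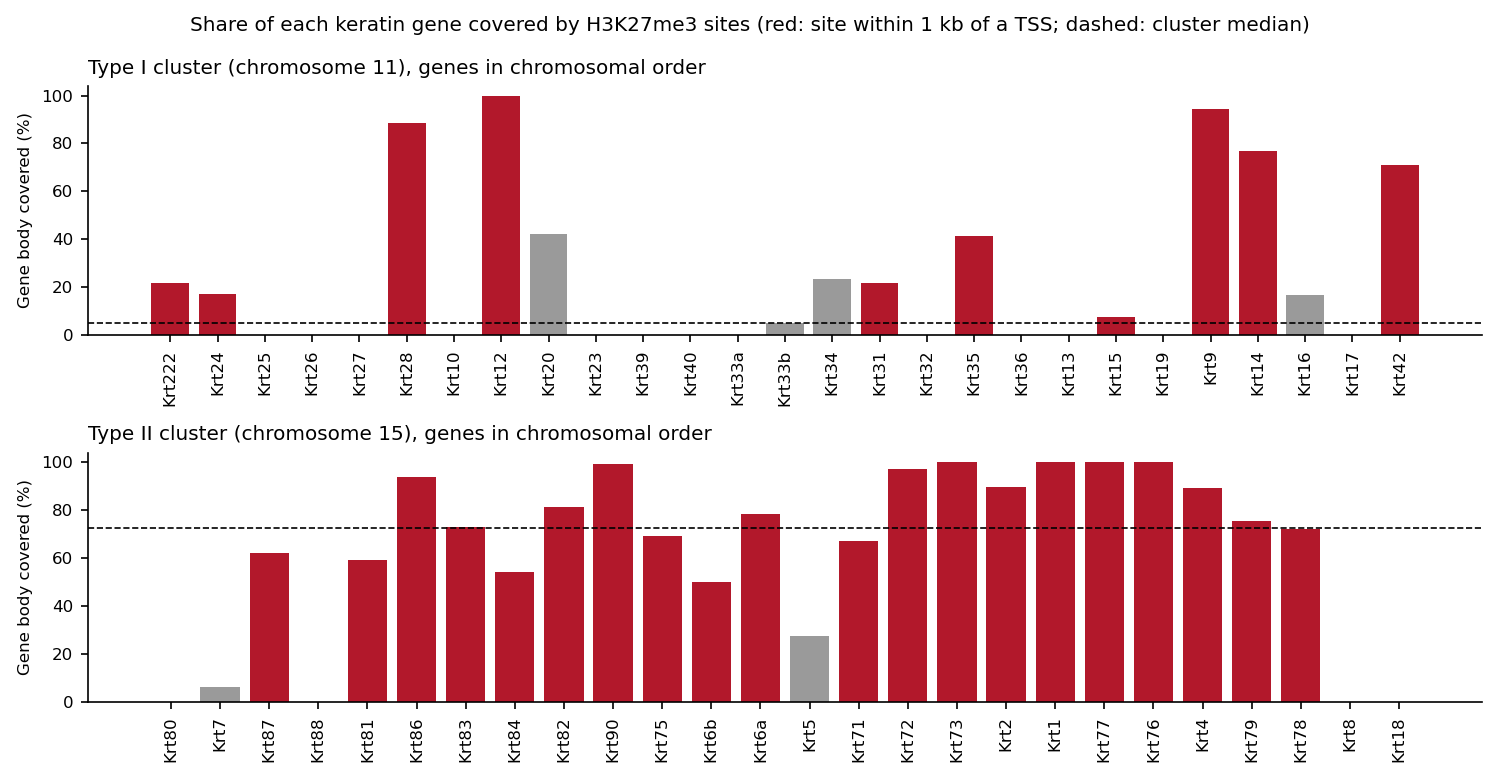
Gene-body cover (percent of bases in H3K27me3 sites) for the 27 type I and 26 type II keratin genes, in chromosomal order. Red bars are genes with a site within 1 kb of a TSS, grey bars genes without, and the dashed line is the cluster median (5.13% and 72.7%). Most type II genes exceed 50%, whereas 13 type I genes have no bar.

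Each cluster was then read along the chromosome. The type II cluster, from Krt80 to Krt18, spanned 684.6 kb (chr15:101347444-102032027). It held 125 sites, or 183 per Mb, with a median width of 1282 bp, and 54.3% of its bases were covered. The type I cluster, from Krt222 to Krt42, spanned 1037 kb (chr11:99232761-100269871). It held 88 sites, or 84.9 per Mb, with a median width of 852.5 bp, and 15.7% of its bases were covered. Over their whole lengths, 7.71% of chromosome 15 and 10.9% of chromosome 11 were covered.

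The mark in the type II cluster was most continuous between Krt71 and Krt78, where 88.6% of 220.3 kb lay in sites. This stretch holds Krt71, Krt72 and Krt73 of the inner root sheath, Krt1, Krt2 and Krt77 of the suprabasal epidermis, Krt4, Krt76 and Krt78 of mucosal epithelia, and Krt79. The widest site of either cluster, 37651 bp (chr15:101841354-101879004), enclosed Krt1 and Krt77 together. Next to it, a site of 14846 bp (chr15:101879903-101894748) enclosed Krt76. Farther along, on the Krt71 side, a site of 18603 bp (chr15:101788333-101806935) enclosed Krt73. Of the hair keratin stretch from Krt87 to Krt75, 62% was covered. This included a site of 19357 bp (chr15:101543352-101562708) over Krt82 and Krt90 and one of 20394 bp (chr15:101499371-101519764) that touched no member gene. Between Krt75 and Krt6b the sites were narrower, with a median of 773.5 bp and none of 5 kb or more, and covered 40.9%. In all, 20 sites of at least 5 kb touched the type II cluster and held 60.5% of its covered bases, against 45.7% over the whole of chromosome 15. Besides those given, such sites touched Krt71 (16466 bp), Krt72 (10120 bp), Krt78 (8001 bp), Krt79 (7584 bp), Krt86 (7329 bp), Krt2 (6425 bp), Krt4 (6008 bp), Krt75 (5993 bp) and Krt87 (5242 bp). A further 6, from 5324 to 9295 bp wide, touched no member gene.

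The ends of the type II cluster were free of sites. No site was listed over 94655 bp (chr15:101972189-102066843) that include the whole of Krt8 and Krt18, the partners found in simple epithelia. At the other end, 87480 bp around Krt80 (chr15:101305322-101392801) held no site, and 10.8% was covered from Krt80 to Krt7. Krt78 had 72.3% of its body covered, whereas Krt8 and Krt18 had 0%.

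**Figure D2:**
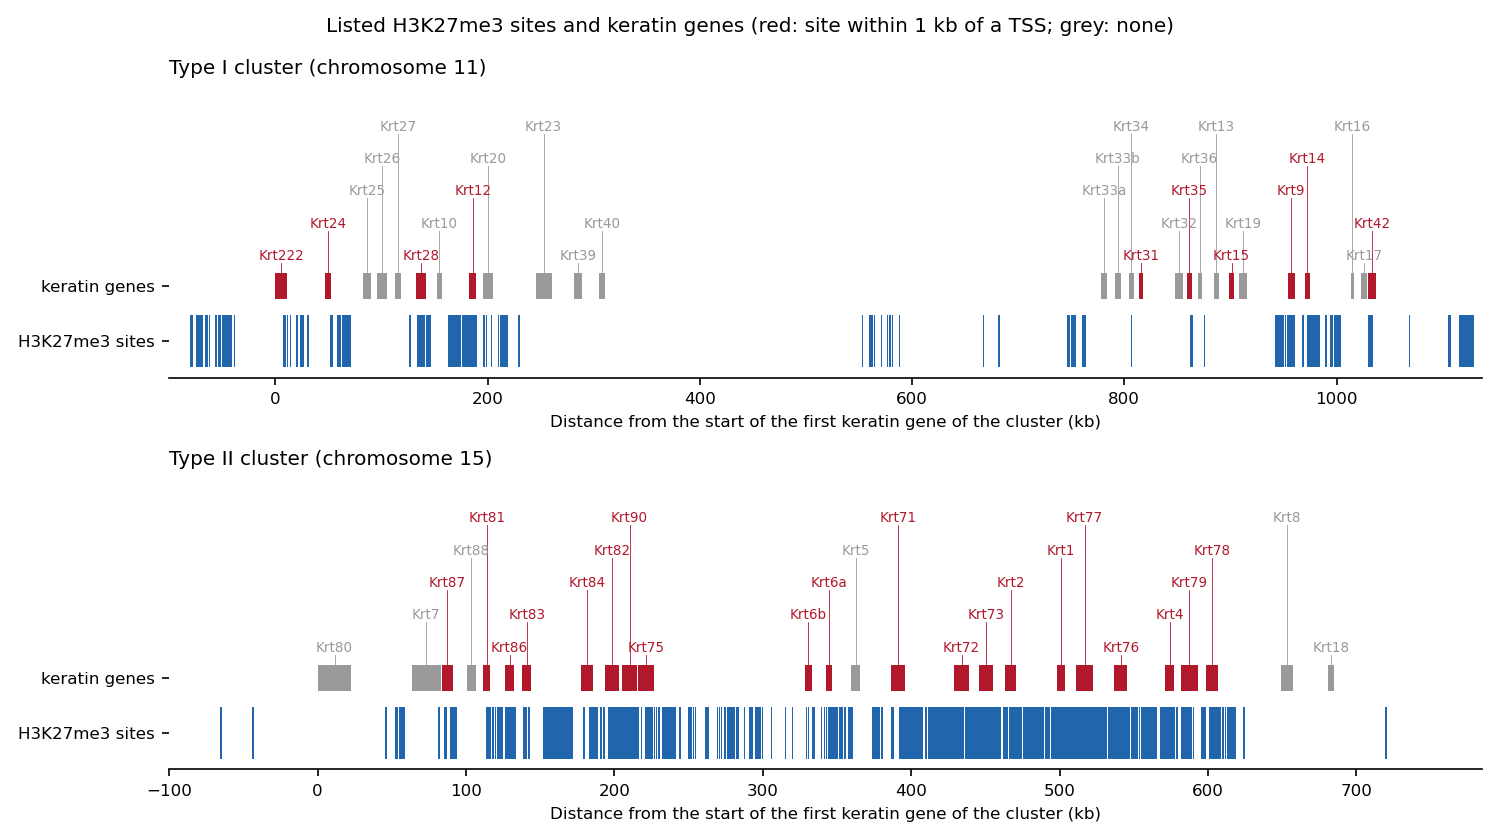
Position of H3K27me3 sites (blue) and keratin genes (red with, grey without a site within 1 kb of a TSS) along both clusters. The horizontal axis is the distance in kb from the start of the first keratin gene. Sites are nearly continuous from Krt71 to Krt78 and missing around Krt8, Krt18 and Krt80, whereas the type I cluster has separate groups of sites.

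In the type I cluster the sites formed islands between empty stretches. From Krt222 to Krt20, 34.5% of 205.4 kb was covered, with sites of 9048 bp over the whole of Krt12 (chr11:99413797-99422844) and of 7937 bp over most of Krt28 (chr11:99366108-99374044). On the Krt24 side of the Krt28 site, a stretch of 54722 bp with Krt25, Krt26 and Krt27 (chr11:99304022-99358743) held no site. A stretch of 322199 bp (chr11:99462987-99785185), the longest without a site in either cluster, took in Krt23, Krt39 and Krt40 and many genes of keratin-associated proteins, the matrix proteins of hair. Between Krt33a and Krt19, sites covered 4.91%. A second marked group began behind Krt19. It included a site of 12900 bp at the start of Krt14 (chr11:100204587-100217486) and a site of 5064 bp over Krt9 (chr11:100188932-100193995), and 58.3% was covered from Krt9 to Krt14. Altogether 7 sites of at least 5 kb touched the type I cluster and held 35.7% of its covered bases, against 50.0% over the whole of chromosome 11. Among these 7 sites, those of 8874, 7536 and 6815 bp touched no member gene.

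In windows of 20 kb, 20 of 34 windows of the type II cluster and 7 of 51 windows of the type I cluster were covered to at least 50%. A cover of at least 90% was reached in 6 type II windows and in 0 type I windows, where the maximum was 81.4%. The surroundings were also marked. In the 1 Mb before the type II cluster 36.3% of bases were covered. In the 1 Mb behind it, 30.1% were covered, 90.8% of this by sites of at least 5 kb. One of these is 228257 bp wide, overlaps Hoxc4 to Hoxc13 and runs past the end of this flank. The 1 Mb before the type I cluster was covered to 29.1%, which is more than the cluster itself, and the 1 Mb behind it to 13%. The type II cluster thus had a higher cover than both of its flanks, and the type I cluster a cover between those of its flanks.

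**Figure D3:**
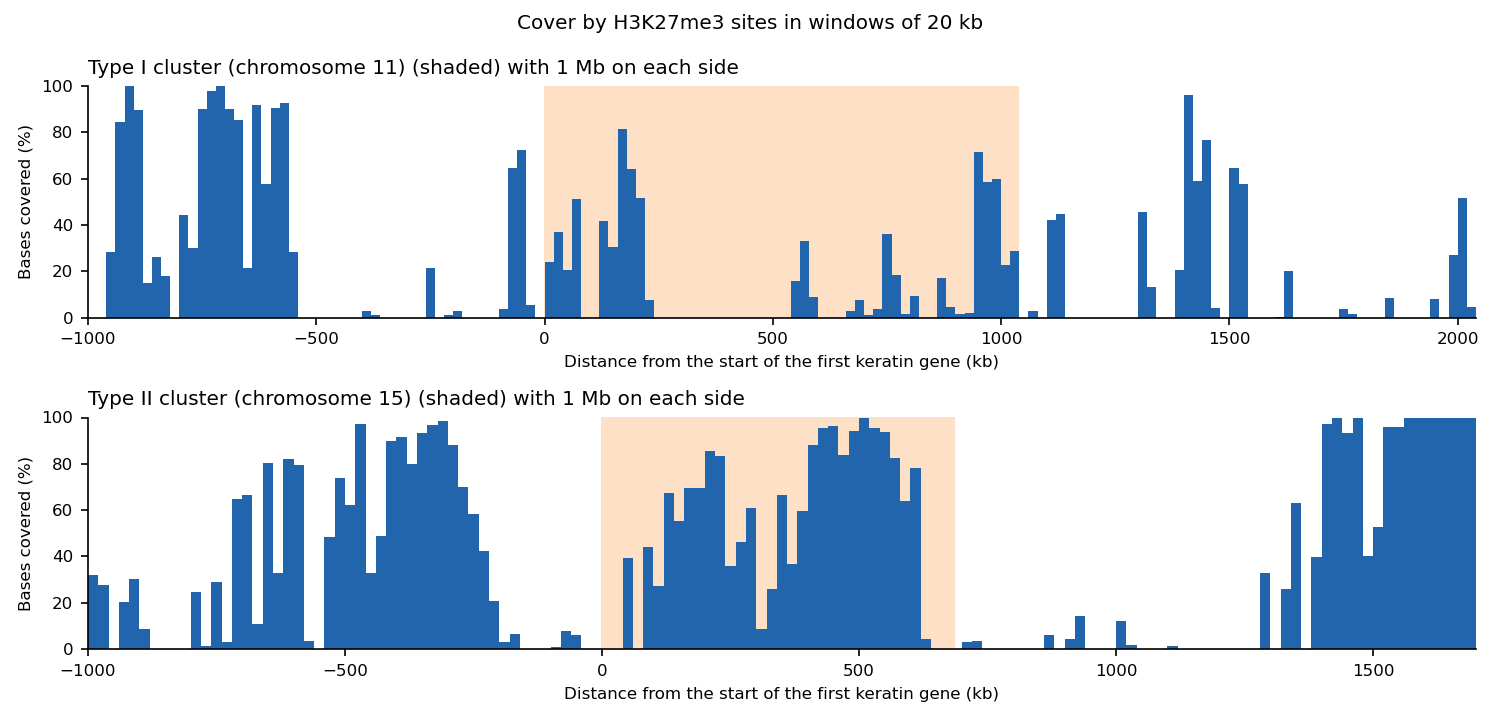
Percent of bases in H3K27me3 sites in 20 kb windows through each keratin cluster (shaded) and 1 Mb on each side, by distance in kb from the start of the first keratin gene. The type II cluster has 6 windows of at least 90% and falls to 0 at both ends before other marked regions begin, and the type I cluster reaches 81.4% at most.

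The genes were grouped by the epithelium in which they are known to be expressed. The lists name Krt74 and Krt85 as well, which were not among the members. The counts of each group are to be read beside the 26.9% of all protein-coding genes with a site. Of Krt7, Krt8, Krt18, Krt19, Krt20 and Krt23, 0 of 6 had a site in the 1 kb window, and their median cover was 0%. Krt8 and Krt18, the first keratins of the embryo, had no covered base, and the nearest sites were 32294 and 38664 bp from their TSSs. Krt19 (type I, simple epithelia and ducts) also had 0%, with a nearest site at 8155 bp, and so had Krt23, with a nearest site at 30151 bp. Krt7, a type II partner in ducts, had a cover of 5.98% from 1 site of 1153 bp in its body, 4847 bp being the shortest distance from a TSS to a site. Krt20 of the gut epithelium was the exception in cover with 42.1%, from 5 sites in its body, although the nearest site was 1310 bp from its TSS.

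Among keratins of differentiated stratified epithelia, the counts differed between the clusters. In the type II cluster all 3 suprabasal and all 3 mucosal keratins had a site, and in the type I cluster 1 of 2 and 0 of 1. Of 5 suprabasal and palmar keratins, 4 had a site, and the median cover was 94.5%. Krt1 and Krt77 were covered over 100% of their length, Krt9 of palms and soles over 94.5% and Krt2 over 89.6%. Krt10, the type I partner of Krt1 in the suprabasal epidermis, had 0% and its nearest site was 5632 bp away. Thus the 2 genes of this pair were at opposite ends of the range. Of 4 keratins of mucosal epithelia, Krt4 (89.3%), Krt76 (100%) and Krt78 (72.3%) of the type II cluster had a site, and Krt13, the type I partner of Krt4, had 0% and no site nearer than 8779 bp. Krt12 of the cornea was covered over 100%.

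Keratins of the basal layer and of wounded skin were mixed. Krt14, expressed in basal cells together with Krt5, had a site over its TSS and a cover of 76.8%. Krt5 had a cover of 27.6% and its nearest site was 1442 bp from the TSS. Krt15, a further basal keratin, had a site of 305 bp at 384 bp from a TSS and a cover of 7.31%. Among the keratins induced in wounds, Krt6a (78.5%) and Krt6b (50.0%) had a site. Krt16 and Krt17 had none within 1 kb, with covers of 16.8% and 0%. For Krt17 the nearest site, 4992 bp wide, was 1030 bp from the TSS, just outside the window, and 79.4% of the 5 kb upstream of the gene was covered.

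Hair keratins differed between the clusters in the same direction as the clusters as a whole. All 5 hair shaft keratins of the type II cluster had a site (Krt81, Krt82, Krt83, Krt84 and Krt86), with covers from 54.1% to 94.1%. Of 7 in the type I cluster, Krt31 and Krt35 had one, with covers of 21.6% and 41.4%, and the median of the 7 was 5.13%. In the inner root sheath, Krt71, Krt72 and Krt73 had covers of 67%, 97.1% and 100%. Their type I counterparts Krt25, Krt26 and Krt27 had 0%, and only Krt28 was covered, to 88.4%. In the companion layer and nail bed, Krt75 had 69.2%. Of 10 members outside the lists, 6 had a site. These were Krt222 (21.7%), Krt24 (17.1%), Krt42 (71%), Krt79 of the hair canal (75.7%), Krt87 (62.2%) and Krt90 (99.2%). Krt39, Krt40, Krt80 and Krt88 had neither a site nor a covered base. Krt40 had the greatest distance of all members to a site, 80172 bp.

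**Figure D4:**
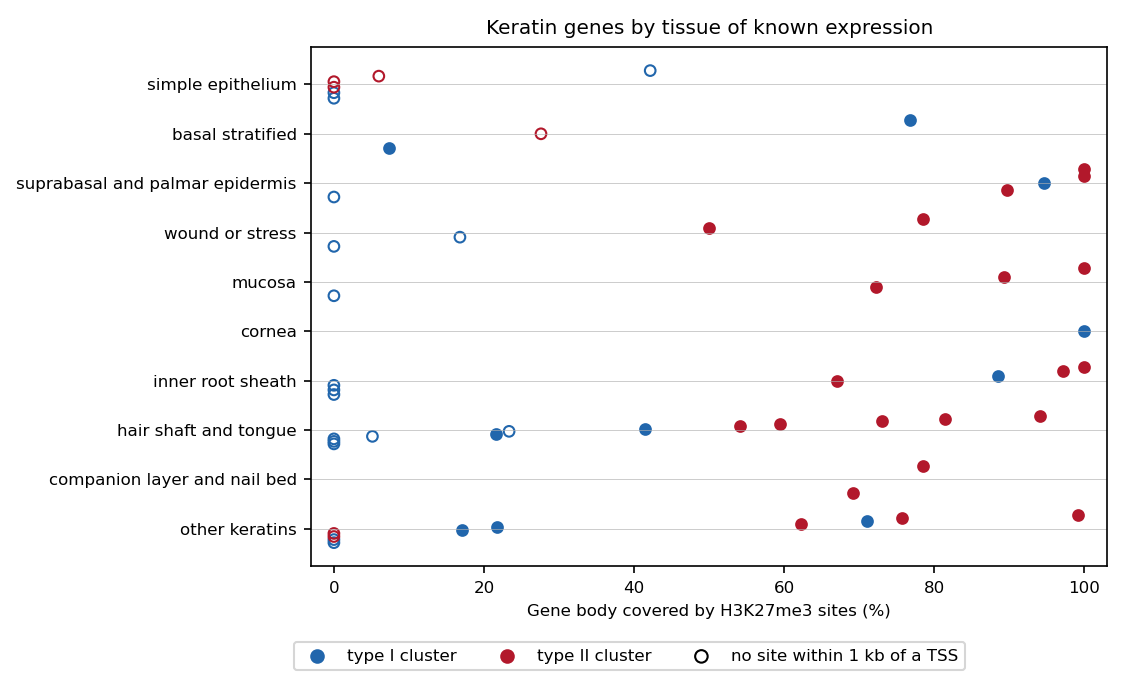
Gene-body cover (percent of bases in sites) of each keratin gene, grouped by the epithelium of known expression, blue for the type I and red for the type II cluster. Open circles have no site within 1 kb of a TSS. The 6 simple-epithelium keratins are all open, and 4 of the 5 suprabasal keratins are filled and at 89.6% or more.

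The window of 1 kb left some genes close to its edge. Just inside it was Krt31 at 661 bp, followed by Krt86 at 386 bp and Krt15 at 384 bp. Just outside were Krt17 at 1030 bp, Krt34 at 1277 bp, Krt20 at 1310 bp and Krt5 at 1442 bp. A site lay on a TSS itself in 16 type II genes and 7 type I genes, against 30.2% and 24.2% of the protein-coding genes of chromosomes 15 and 11. The sites on type II TSSs had a median width of 7792.5 bp, from 980 to 37651 bp, and those on type I TSSs of 4992 bp, from 846 to 12900 bp.

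Cover of keratin genes was not highest at their starts. In the type II cluster 61.5% of the last 500 bp before the 5′ end of the gene and 53.9% of the first 500 bp behind it were covered, as means over genes. In the type I cluster these values were 23.0% and 25.9%, and over all protein-coding genes 17.1% and 18.5%. The mean type II cover remained between 42.2% and 77.7% over 10 kb on either side. The median cover of the 5 kb upstream was 70.7% in the type II and 0% in the type I cluster, where 17 of 27 genes had no covered base there. No share over all protein-coding genes is given for this upstream measure, so the count has no background beside it. Median exon and intron covers were 68.3% and 73.4% in the type II cluster, and 5.25% and 5.09% in the type I cluster. All 27 type I genes and 22 of 26 type II genes lie on the reverse strand.

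**Figure D5:**
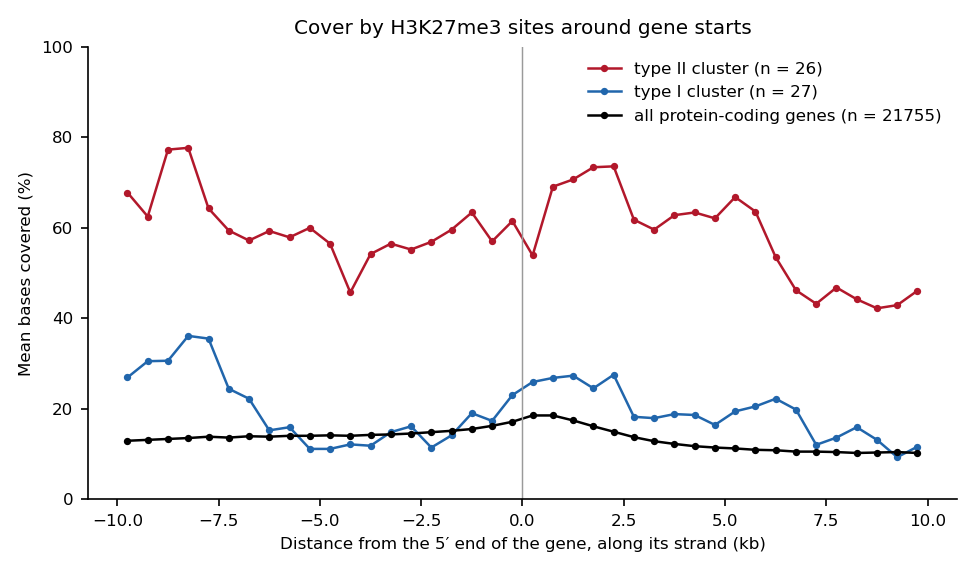
Mean percent of bases in H3K27me3 sites in 500 bp steps over 10 kb on either side of the 5′ end of genes, along the strand of the gene, for 26 type II genes, 27 type I genes and 21755 protein-coding genes. The type II line stays above 42%, the type I line lies between 9.27% and 36.1%, that of all genes between 10.2% and 18.5%, and neither keratin line has its highest point at the start.

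H3K27me3 is commonly found at CpG islands, so the promoters were compared by CpG content. A CpG island, taken as a stretch of 500 bp in which G and C reach 55% and the observed/expected CpG ratio reaches 0.65, lay within 1 kb of a TSS in 7 of 53 keratin genes (13.2%), against 60.1% of all protein-coding genes. These were Krt10 and Krt19 in the type I cluster and Krt1, Krt7, Krt8, Krt18 and Krt87 in the type II cluster. Of the 7, only Krt1 and Krt87 had a site. Over protein-coding genes with an island this share was 26.3% in all, 28.6% on chromosome 15 and 24% on chromosome 11. Among the keratin genes without an island, 18 of 21 in the type II cluster and 10 of 25 (40.0%) in the type I cluster had a site. The corresponding shares of genes without an island were 27.7% over all chromosomes, 51.4% on chromosome 15 and 43.1% on chromosome 11. The type I share was therefore not above that of genes of the same kind on its chromosome. The CpG ratio over 500 bp on either side of the 5′ end had a median of 0.313 in keratin genes with a site and 0.301 in those without, against 0.558 over all protein-coding genes. Among genes without an island, the median ratio was 0.3 in keratin genes and 0.19 over all protein-coding genes.

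Near-identical copies limit what can be said of some members. The share of 50-base words of a gene that occur more than once on the chromosomes and unplaced scaffolds was highest in Krt6b (40.0%), Krt6a (35.3%), Krt16 (28%), Krt81 (27.3%) and Krt86 (19.8%), and was at least 10% in 10 members. Per the methods of the study, unusable reads were removed after the recommendations of ENCODE. The mapping quality required of reads that fit several places is not given in the sources used here, so sites in these genes are uncertain in either direction. Without these 10 members, 9 of 24 type I and 14 of 19 type II genes had a site. In the type I cluster 3.10% of covered and 9.28% of uncovered bases began a repeated word, and in the type II cluster 3.08% and 8.76%. Covered bases also had a higher GC content, 47.7% against 43.5% in the type I and 49.1% against 47.2% in the type II cluster. The part of these differences in the result was not tested. Krt8 (11.8%) was among the 10, whereas Krt18 (0.130%), Krt10 (0%), Krt13 (0%) and Krt19 (1.53%) hold few repeated words and had no covered base. Of 24 patch and alternate sequences of chromosomes 11 and 15 0 aligned to either cluster with 1000 or more matching bases.

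The type I cluster also holds genes of keratin-associated proteins. Of 23 such Krtap genes 5 had a site (21.7%), against 30.4% of protein-coding genes of the chromosome, and 18 had no covered base. Of the 468.0 kb between Krt40 and Krt33a that hold them, 5.45% was covered, and 14.7% of the words there were repeated. Over all 57 Krtap genes of the genome, 16 had a site (28.1%), against 26.9% of all protein-coding genes.

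Further genes of the epithelial programme were looked up from lists. Of 11 transcription factors of the epidermis, 8 had a site by the same measure, against 26.9% of all protein-coding genes. Their covers were 85.5% in Tfap2c, 78.4% in Grhl3, 51.0% in Grhl2, 42.8% in Ovol1, 40.7% in Ovol2, 23.9% in Tfap2a, 22.3% in Gata3 and 6.09% in Grhl1, whereas Trp63, the p63 gene that specifies stratified epithelium, and Klf4 and Klf5 had 0% and no site. Of 9 plaque and linker proteins that anchor keratin filaments, 4 had a site, namely Dsp (desmoplakin, 69.2%), Pkp1 (58.2%), Ppl (37.6%) and Pkp3 (23.8%). Jup, which encodes plakoglobin, Dst, Pkp2 and Plec had 0% and no site. Evpl had 12.7% and no site within 1 kb. Of 6 cornified envelope genes, Cnfn (100%), Lor (100%) and Tgm3 (47.1%) had a site, and Flg, Ivl and Tgm1 had 0%. Of 6 genes of epithelial adhesion and splicing, Cdh1, the E-cadherin gene, had a site (13.5%), as did Cldn7 (100%), Esrp1 (70.4%) and Epcam (34.4%), whereas Cldn4 and Esrp2 had 0% and no site.

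Among 15 genes of other intermediate filaments, 9 had a site, against 26.9% of all protein-coding genes. All genes of neuronal filaments in the list were in this group, with Ina and Prph covered over 100%, Nefl over 93.8%, Nefh over 65.7% and Nefm over 45.3%. Nes (89.4%), Gfap (35.7%), Bfsp2 (22.3%) and Synm (4.9%) were in it too. Bfsp1 had no site within 1 kb and a cover of 1.36%. Vim and Des, the vimentin and desmin genes, and the lamin genes Lmna, Lmnb1 and Lmnb2 had no covered base. Of 8 genes typical of fibroblasts, 1 had a site, against the same 26.9%. This was Pdgfra, with 1.76% of the gene covered, while Vim, Col1a1, Col1a2, Col3a1, Thy1, Pdgfrb and Fn1 had no covered base. The list holds no expression, so the fibroblast label could be compared with these genes only in this way.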

How the data were processed

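H3K27me3 ChIP-seq of iMEF cells with tagged ASH2L comprised 8 libraries and 4 inputs, grouped by the labels of each sample. Reads were trimmed (Trim Galore) and aligned to mm10 (BWA) by the authors, who removed unusable reads with samtools after ENCODE recommendations, merged replicates with Picard and called broad peaks with MACS in modified nf-core code. Versions, cutoffs and the rule for joining samples are not given in the sources used here. The deposited list gives chromosome, start and end in base pairs and no signal value, so depth is unknown. Starts were read as counted from 0, since widths then begin at 200 bp.

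Sites were compared with GENCODE M21 (the study names a later release) in Python 3.11.15 with numpy 2.4.6 and pandas 2.3.3. Figures were drawn with matplotlib 3.10.9. Repeated words of 50 bases were counted on both strands of 65 sequences, and patches were aligned with minimap2 2.31-r1302. The overlap functions were tested on simulated data. The main counts are given beside the share over all protein-coding genes, and no test was made. The members and gene lists were chosen with earlier results of these data known. The naming rule took members with a site, the 5 most covered of each cluster, those farthest from a site and the simple-epithelium and basal lists. The rule also took the sites of at least 5 kb. Other members were named, and the 50% threshold, CpG islands, promoter motif and repeated words were added, after values were seen. Alternatives changed the window, the site width, merging, the start convention, the TSSs, the cluster of Krt18, the use of exons alone and the stretch measured.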

Additional observations from a re-analysis of the deposited data

How the results depend on the processing

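Of 53 values under 12 alternative settings, 45 were within 1.5 times the value given, and the type II cluster had the higher value wherever a setting gave a count or a cover for both clusters. Counting only sites centred within 1 kb of a TSS, 15 keratin genes had one, 5 in the type I and 10 in the type II cluster (18.5% of all protein-coding genes); the cause was not tested. With a window of 3 kb, 16 type I genes had a site, against 33.5% of all protein-coding genes. The median gene-body cover of the type I cluster fell to 0% with sites of at least 500 bp, with sites of at least 1000 bp and without members with at least 10% repeated words (chosen after seeing the data), and was 2.57% with Krt18 counted as type I. With sites less than 3000 bp apart merged, the median cover was 100% in the type II cluster and 5.13% in the type I cluster. No paired analysis was possible because the list joins all samples and carries no replicate. The list cannot show marked positions under the detection limit of the peak caller, and a gene without a site is not shown to lack the mark.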

Other observations

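The type II cluster also holds 3 protein-coding genes without a keratin symbol, Gm49425, Gm5414 and Gm5478. All 3 had a site on a TSS, against 30.2% of the protein-coding genes of chromosome 15. Their gene-body covers were between 88.6% and 100%, where 18% of the protein-coding genes of chromosome 15 were covered to at least 50%. In the type I cluster, 4 of 17 genes with a Gm number had a site in the 1 kb window (23.5%), against 30.4% of the protein-coding genes of chromosome 11. No covered base was found in 13 of them (76.5%), against 66.8%. At the Krt222 end of that cluster, a stretch of 45357 bp (chr11:99194502-99239858) that encloses Smarce1 and reaches into Krt222 held no site.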
